A study of Mus musculus with 2 samples.

Results

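The cluster from Mir379 to Mir410 is a run of microRNA hairpins on mouse chromosome 12, in the imprinted domain between Dlk1 and Dio3. Its members were taken by position, as every GENCODE microRNA gene on the plus strand from Mir379 to just past Mir410 that has a row in the count tables. To these 34 rows were added 4 rows of minus-strand genes read on their opposite strand, Gm25252, Gm24321, Gm25750 and Mir299b, which lie across from Mir376a, Mir409, Mir380 and Mir299a. The 38 members, of 1973 genes in all, span 38.9 kb of GRCm38 (mm10), chr12:109709060-109747960, the last being Mir3072 beyond Mir410. Mir376b, annotated between Mir376c and Mir376a, has no row and was not analysed here.

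The samples are 2 small RNA libraries, each from total RNA of 1 midbrain of a B6NCrl mouse at postnatal day 0, from pup 1 and pup 3. They form a single group with no treatment, mutant or second age, RNA was selected for under 30 bases, and sex was not collected. The labels name different pups but give both the same donor identifier, so the spread given below is that between these 2 pups as labelled.

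MicroRNAs guide the silencing machinery to messenger RNAs through their seed, bases 2 to 8 from the 5′ end, and each hairpin can release a 5p and a 3p arm. Hairpins of this cluster are transcribed from the maternal chromosome, with Meg3, Rian and Mirg, as parts of long noncoding transcripts, whereas Dlk1, Rtl1 and Dio3 are expressed from the paternal one. The cluster belongs to placental mammals, is expressed in the brain, and can be switched on by the neuronal transcription factor Mef2. Its best studied member, miR-134, limits the growth of dendritic spines through Limk1. With 1 inbred strain the parental alleles were not told apart, and in bulk tissue fewer cells of a type and less RNA per cell cannot be told apart.

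The mature sequences of the 5 most abundant hairpins are shown first, since those hairpins held most of the cluster's counts. RefSeq (GRCm38.p6) gave 69 mature sequences for 37 of the 38 members. The seed is in capitals, and counts were made per hairpin, so the arm that was sequenced is not known.
miR-487b-5p: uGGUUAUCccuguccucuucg
miR-382-5p: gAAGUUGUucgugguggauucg
miR-382-3p: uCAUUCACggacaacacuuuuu
miR-369-5p: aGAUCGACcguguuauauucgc
miR-369-3p: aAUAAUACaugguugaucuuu
miR-376a-5p: gGUAGAUUcuccuucuaugagu
miR-376a-3p: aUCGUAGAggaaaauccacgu
miR-411-5p: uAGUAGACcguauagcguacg
miR-411-3p: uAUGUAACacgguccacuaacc

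No seed is shared among these 9 sequences. Mir487b, Mir376c, Mir539, Mir485 and Mir453 entered with 1 arm each, and the seed counts cover these 69 entries only. Among them there were 64 distinct seeds, and 5 seeds occurred in a pair of members each, 9 members in all. These pairs are shown because, among the 69 entries, they are the places where members could share targets by seed. Arms without an entry could add other pairs.
miR-379-3p: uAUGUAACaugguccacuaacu
miR-411-3p: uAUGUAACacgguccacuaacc
miR-379-5p: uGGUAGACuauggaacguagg
miR-1193-5p: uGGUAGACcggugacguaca
miR-758-5p: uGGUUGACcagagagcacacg
miR-1197-5p: cGGUUGACcaugguguguacg
miR-410-5p: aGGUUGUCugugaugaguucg
miR-494-5p: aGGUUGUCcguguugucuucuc
miR-496a-5p: aGGUUGCCcaugguguguuca
miR-453: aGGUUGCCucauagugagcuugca

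Other arms were alike along most of their length but differed in the seed. When sequences were compared without gaps and with a shift of at most 1 base, miR-300-3p and miR-381-3p matched at 19 of 22 bases, and miR-543-3p and miR-495-3p at 18 of 22. None of the 69 mature sequences was found whole in more than 1 annotated hairpin.
miR-300-3p: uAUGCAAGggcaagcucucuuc
miR-381-3p: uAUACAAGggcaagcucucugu
miR-543-3p: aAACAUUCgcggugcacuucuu
miR-495-3p: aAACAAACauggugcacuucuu

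The hairpins also shared short words. Of the 3 most frequent 6-base words in the member hairpins, the one least common elsewhere was UUCGCU, which 10 of 38 members held (26.3%), against 6 of 2136 other annotated mouse hairpins (0.281%) and 0 of the 19 upstream hairpins described below. The word was picked on the members themselves, read on the hairpin's own strand only, and overlaps the equally frequent word UCGCUU; member hairpins had a median length of 79 bases and the others of 90. In the 3 hairpins shown, with the word in capitals, it lies before the midpoint, starting at base 29 of Mir382, base 31 of Mir369 and base 24 of Mir154. In Mir329 it starts already at base 3.
Mir382: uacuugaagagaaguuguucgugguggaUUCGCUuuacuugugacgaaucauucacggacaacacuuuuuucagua
Mir369: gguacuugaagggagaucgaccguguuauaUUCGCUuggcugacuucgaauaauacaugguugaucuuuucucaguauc
Mir154: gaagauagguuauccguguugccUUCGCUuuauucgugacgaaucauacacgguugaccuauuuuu

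Levels are raw counts scaled to a total of 1000000 over genes (CPM), and errors are the SD over n = 2 pups. The totals over genes, with the 4 opposite-strand rows added, were 2378806 counts in pup 1 and 3258235 in pup 3, and 38.7% and 39.8% of all reads mapped to several places and entered no gene. Neuron-enriched microRNAs were present (Mir137 at 23848 ± 3044 CPM), whereas Mir124a-1 had 11.4 CPM in both pups. Of the muscle markers, Mir1a-1 and Mir133a-1 had 0 counts, and Mir206 had 46 and 63 counts in pups 1 and 3. Mir124a-1, Mir1a-1 and Mir133a-1 are numbered as copies, and reads that fit several copies enter no gene. Their low counts thus do not show that these microRNAs were absent.

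The cluster held 13.2% of the counts in pup 1 (exact 95% binomial interval 13.1 to 13.2) and 13.9% in pup 3 (13.8 to 13.9), or 13.5% ± 0.499. Intervals here cover counting error only, as PCR copies were not told apart. Of the members, 35 of 38 had at least 10 counts in each library, against 18.4% of all genes in the tables. By mean level 15 members were among the 100 most abundant of the 1973 genes, 9 among the first 50 and 3 among the first 20. Shares and ranks, here and below, cover only reads that were assigned to a gene. MicroRNAs with several copies can thus rank too low, and members too high beside them. Of all reads the cluster held 5.93%.

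Mir487b had 118165 counts in pup 1 and 180280 in pup 3, or 49674 and 55331 CPM. It had rank 3 among all genes and made up 38.8% ± 1.53 of the cluster. Without it the other members still held 8.28% ± 0.0991 of all counts. Its hairpin (chr12:109727333-109727414) lies outside any annotated host gene on its strand and shares a run of 20 bases with that of Mir376b. Whether this run affected its level was not tested.

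A group of 4 hairpins followed at nearly the same level. Mir382 had 10771 and 11605 CPM in pups 1 and 3, and Mir369, whose 3p arm is known to act with AU-rich elements of messenger RNAs, had 12159 and 9911 CPM. Mir376a, from the miR-376 family known for A-to-I editing of its hairpins, had 9326 and 11039 CPM, read on the opposite strand of Gm25252. Mir411 had 10034 and 8283 CPM. Its hairpin shares 21 bases with that of Mir758, while their 3p arms matched at 15 of 19 bases. Whether the shared run affected both levels was not tested. The order of these 4 differed between the pups, Mir369 being highest of them in pup 1 and Mir382 in pup 3, and the ranges of all 4 overlapped except that Mir411 stayed below Mir382. With Mir487b they held 69.6% ± 0.367 of the cluster's counts.

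The next 5 hairpins brought the share to 88.6% ± 0.141. Mir381 had 5715 and 6220 CPM, Mir409 (opposite Gm24321) 6081 and 5594 CPM, and Mir541 4995 and 5953 CPM, 3 overlapping ranges. Mir379, the first hairpin, had 4062 and 4630 CPM and Mir154 4005 and 4238 CPM, overlapping each other and lying below the 3 before. Among the 15 most abundant members were also Mir323 with 3129 and 3394 CPM, Mir300 with 1954 and 2128 CPM, Mir380, a repressor of p53 (opposite Gm25750), with 1392 and 1872 CPM, and Mir134 and Mir543, given below.

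Mir134, the best studied member, had rank 14 in the cluster and 90 among all genes, and held 1361 and 1544 CPM in pups 1 and 3. A further 15 members lay between 100 and 1000 CPM, from Mir3072 at 111 ± 3.01 CPM to Mir376c at 952 ± 121 CPM. They include Mir299a (opposite Mir299b) with 728 and 819 CPM, Mir485, a microRNA of synapse regulation, at 582 ± 80.3 CPM, and Mir329, which acts on dendrites like miR-134, at 375 ± 29.4 CPM. Mir376c shares 31 bases with Mir376b, and whether this affected its level was not tested.

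At the low end, 5 members had counts but stayed under 100 CPM. They were Mir377 at 91.9 ± 3.31 CPM, Mir758 at 73.4 ± 5.64 CPM, Mir679 at 60.2 ± 6.04 CPM, Mir544 at 47.5 ± 4.81 CPM and Mir1197, with 20 and 24 counts, at 7.89 ± 0.737 CPM. Mir654, Mir453 and Gm27379 had 0 counts in either pup. By counting error alone, a count of 0 leaves room for a level of 1.26 CPM in the first library and 0.921 CPM in the second. Reads that map to several places enter no gene and are not covered by these limits. From Mir1197 to Mir487b the detected members spanned a 6657-fold range, and the SD of their log2 CPM was 2.81. Without the 4 members whose hairpins have 20 or more bases in common with another one (Mir487b, Mir411, Mir376c and Mir758) the range was 1419-fold.

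**Figure D1:**
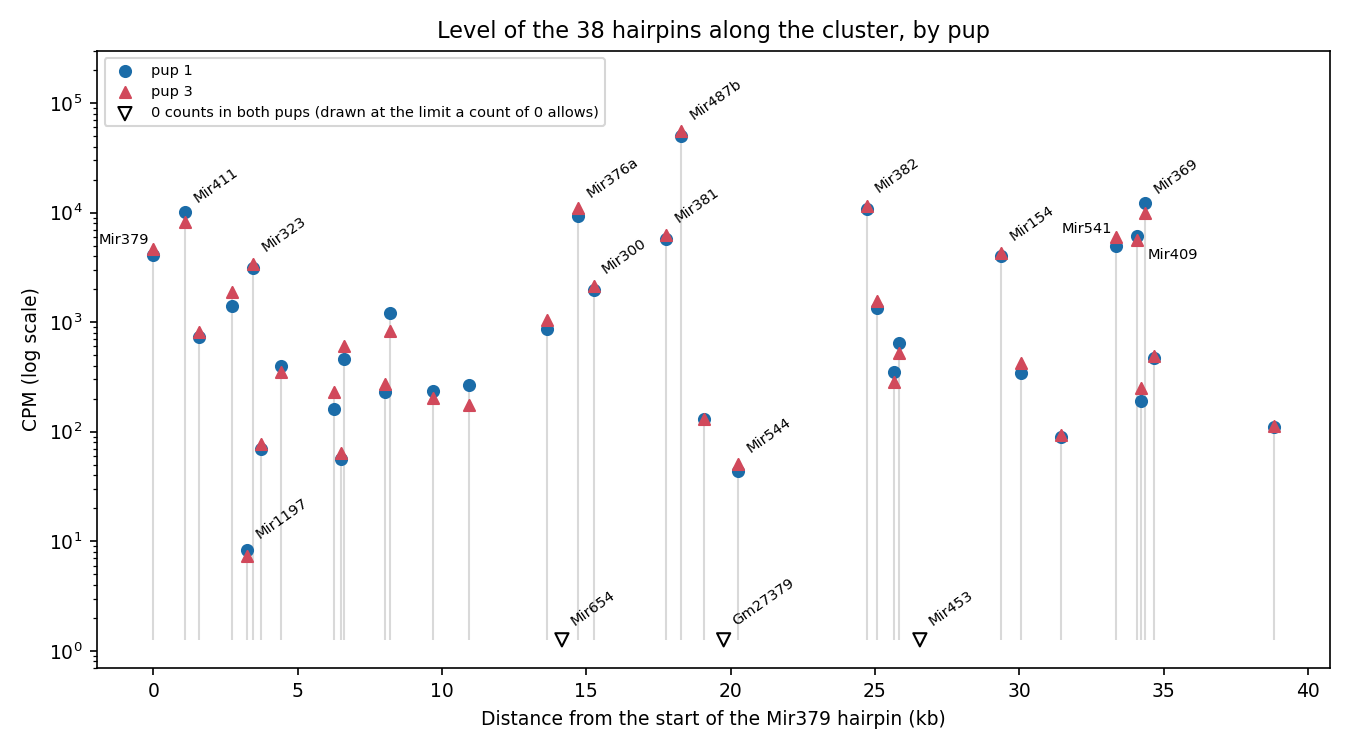
CPM of each of the 38 hairpins (log axis) against the distance of its start from that of Mir379 in kb; circles are pup 1, triangles pup 3, and open triangles mark hairpins with 0 counts in both. Mir487b stands highest at 49674 and 55331 CPM, abundant and scarce hairpins alternate along the whole span, and the pups' points lie close together.

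Level showed no trend along the cluster. Across the 38 members, which share their libraries and, as background, their transcript, Spearman's rho of log2(CPM + 1) with distance from Mir379 was 0.02 (Pearson's r 0.03). The level of a hairpin and that of the next one had a rho of -0.02 over 37 neighbouring pairs. Mir1197 at 7.89 CPM and Mir323 at 3262 CPM are neighbours, starting 3.26 and 3.45 kb from the start of Mir379, and Mir412 at 220 ± 41.1 CPM lies between Mir409 and Mir369, at 5838 and 11035 CPM.

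Of the members, 14 lie within Mirg, the noncoding RNA at the downstream end, from Mir382 on, and the 24 before it have no annotated host. The median was 455 CPM over the 24 and 531 CPM over the 14. Detected members ran from 7.89 to 52502 CPM before Mirg and from 91.9 to 11188 CPM within it, so that Mir487b and 4 of the 5 members with counts under 100 CPM lie before Mirg. The stretch before Mirg held 9.40% ± 0.538 of all counts, of which Mir487b made up 55.9%, and that within Mirg 4.13% ± 0.0385. By the annotation, 4 of the 14 lie in an exon of Mirg (Mir134, Mir485, Mir377 and Mir410), 5 in introns and 5 across an exon boundary.

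Features of the hairpin followed level only weakly, as rho was -0.27 for GC content (29.1% to 72.3%), -0.25 for length (61 to 123 bases) and 0.09 for the free energy of folding (-46.9 to -16.6 kcal/mol). These are descriptions over 38 related hairpins with no test.

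Members that share a seed differed in the level of their hairpins. Both arms are counted together, so the arm that holds the seed was not measured apart. Mir411 held 2.11 times the CPM of Mir379 with the same 3p seed, and Mir379 8.14 times that of Mir1193 with the same 5p seed, which had 462 and 607 CPM. Mir410 had 470 and 489 CPM in pups 1 and 3 against 161 and 232 CPM for Mir494. Mir758 had 69.4 and 77.3 CPM, 9.30 times the mean CPM of Mir1197, which had 8.41 and 7.37 CPM. Mir496a had 341 and 421 CPM while its seed partner Mir453 had 0 counts. In each pair the order was the same in both pups. Whether the run shared by Mir411 and Mir758 affected the comparisons with them was not tested.

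The 2 libraries ranked the members alike, with Spearman's rho 0.991 over the 35 detected members and also over all 363 detected genes. Ratios of pup 3 to pup 1 were then taken after TMM scaling for the 290 genes whose mean count reached 50, among them 34 members. Each gene had an exact binomial test of its counts with Benjamini-Hochberg adjustment over the 290, which compares these libraries and has no replicate check. A gene was called with an adjusted p under 0.05 and at least a 1.5-fold ratio.

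Called members numbered 2 of 34, against 6.90% of all genes tested. Both were higher in pup 1, where 4.48% of genes were called, and 0 were higher in pup 3, where 2.41% were. Mir667 measured 265 and 175 CPM in pups 1 and 3, and its log2 ratio was -0.64 (95% counting interval 0.571 to 0.718-fold, exact adjusted p = 6.7e-14). Mir543, one of the members known to act on N-cadherin in new neurons, measured 1223 and 836 CPM, and its log2 ratio was -0.59 (0.630 to 0.6996-fold, exact adjusted p = 4.1e-52). With plain library totals Mir543 was below 1.5-fold and Mir667 alone was called, and at 2-fold no member was, although 26 members had an adjusted p under 0.05 at any fold.

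The 34 members had a median log2 ratio of 0.08, against 0.02 over all 290 genes, and 24 of 34 lay above 0, against 53.4% of all. At any fold 26 of 34 members passed the adjusted test, against 57.9% of all genes; 17 of them were higher in pup 3, against 30.7% of all genes, and 9 in pup 1, against 27.2%. The SD of log2 ratios was 0.27 over the members and 0.40 over all tested genes, whose ratios ran from -1.52 to 2.66. The median size of the log2 ratio, whatever its sign, was not smaller for members, at 0.18 against 0.16 for all tested genes. The median counting SD of a single ratio was 0.05 over the members and 0.06 over all tested genes. For Mir487b, which has most counts, the log2 ratio was 0.11, with an interval of 1.07 to 1.09-fold.

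Higher in pup 3 by less than 1.5-fold were Mir494 with 161 and 232 CPM in pups 1 and 3 (log2 ratio 0.48), Mir380 with 1392 and 1872 CPM (0.38), Mir1193 (0.35), Mir412 (0.34) and Mir496a (0.26). Higher in pup 1, beside the called pair, were Mir668 with 354 and 285 CPM (-0.35), Mir369 (-0.34) and Mir485 with 639 and 525 CPM (-0.32). Spearman's correlation of the ratio with distance was -0.19 over 34 members, and that between neighbouring tested members was -0.05 over 33 pairs. Mir543, Mir495 and Mir667, which follow each other at 8.20, 9.69 and 10.9 kb from Mir379, were all higher in pup 1, with log2 ratios of -0.59, -0.25 and -0.64. By contrast, Mir411 and Mir380, with only Mir299a between them, had log2 ratios of -0.32 and 0.38.

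**Figure D2:**
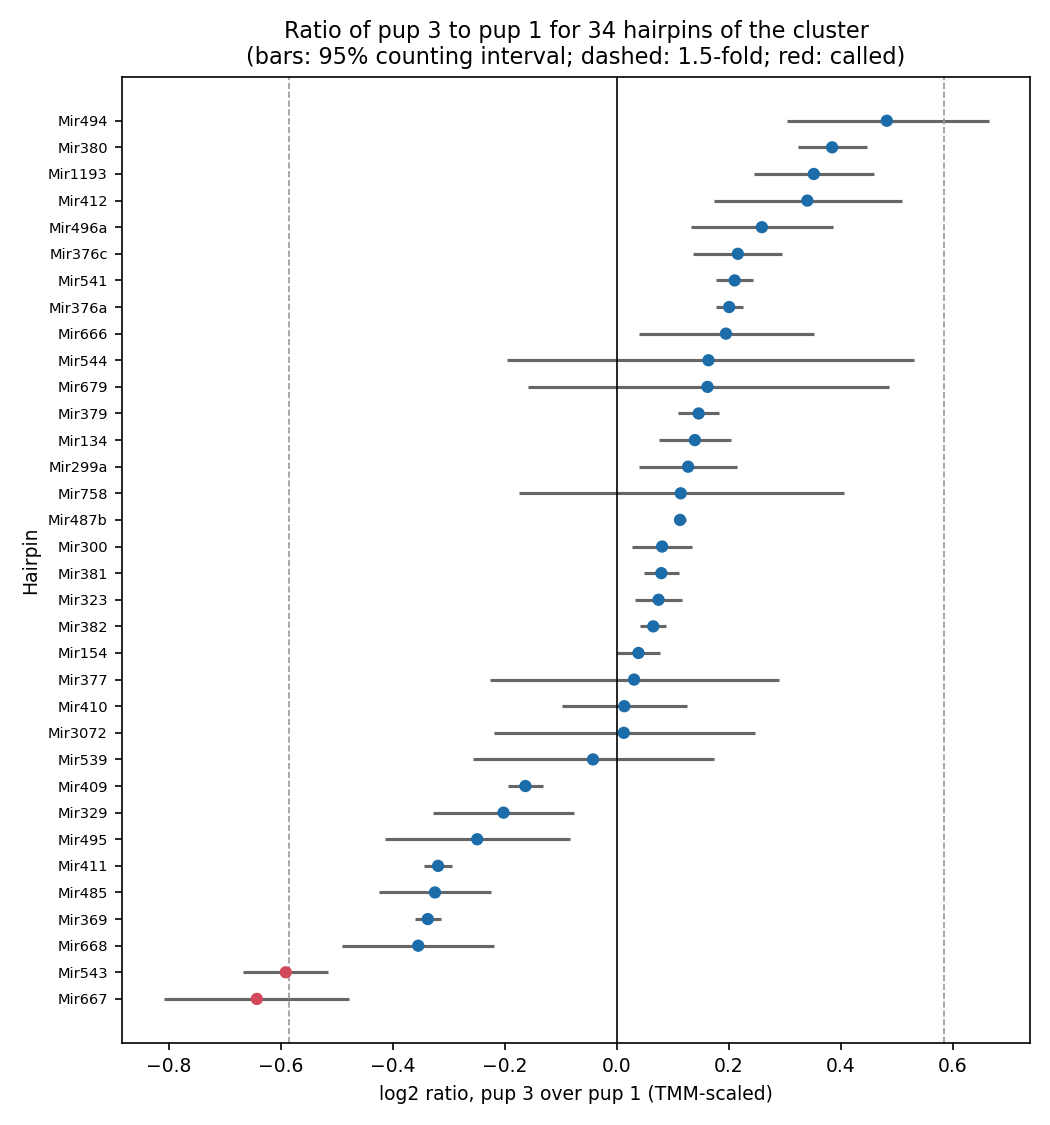
log2 ratio of pup 3 over pup 1 for the 34 tested members, ordered by ratio; bars are 95% counting intervals, dashed lines mark 1.5-fold and red points are called. Mir667 and Mir543 lie past the line toward pup 1, and the bar of Mir487b is hidden by its point.

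Among markers of other cells, some differed between the pups and others were close. The 5 epithelial miR-200 hairpins summed to 93.3 CPM in pup 1 (3 of 5 detected) and 583 CPM in pup 3, each of the 5 being higher in pup 3. Of the red cell markers Mir451a had 84.9 and 30.4 CPM, while Mir144 had 19.8 and 28.5 CPM. Endothelial Mir126a had 35554 and 29514 CPM. The 7 neuronal hairpins summed to 40892 and 45874 CPM, with Mir137 and Mir153 higher in pup 3, Mir132, Mir128-1 and Mir9-3 lower there, and Mir212 and Mir124a-1 nearly equal. Mural cell markers summed to 7087 and 6986 CPM and those of muscle to 19.3 CPM in both, while hepatocyte Mir122 had 57.6 and 47.0 CPM. Of the oligodendrocyte markers, summing to 1441 and 1347 CPM, Mir219a-2 had 706 and 571 CPM and Mir338 735 and 776 CPM. Of those of microglia and leukocytes, summing to 419 and 374 CPM, Mir150 had 258 and 208 CPM and Mir223 161 and 166 CPM. The part of all these markers in the members' ratios was not tested.

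**Figure D3:**
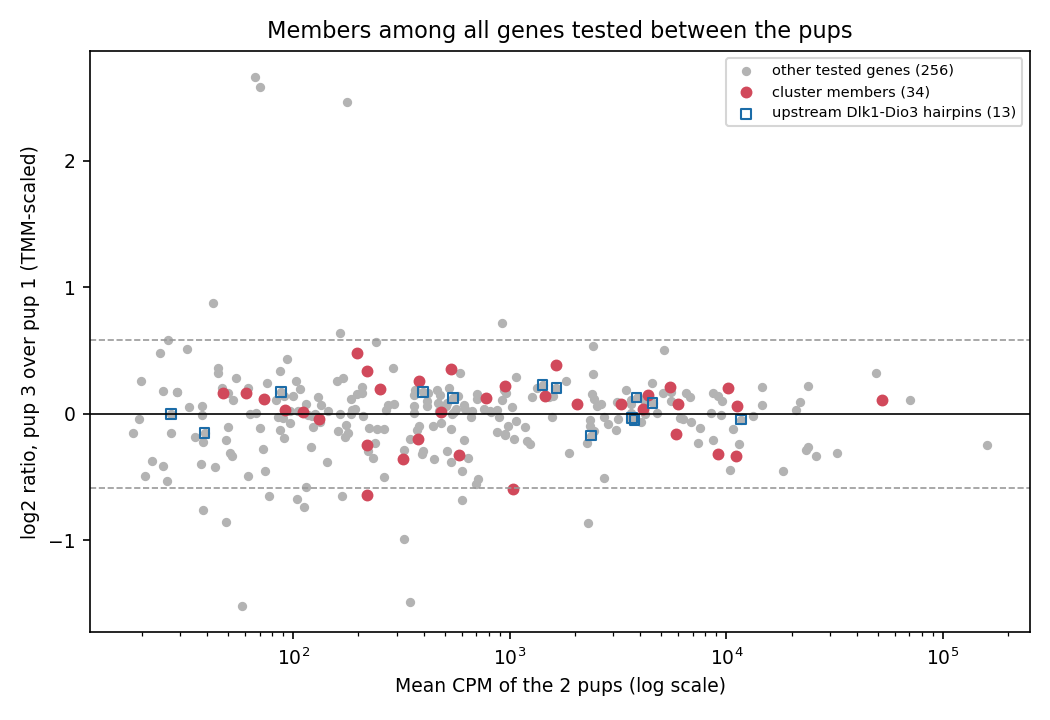
log2 ratio of pup 3 over pup 1 against mean CPM (log axis) for all 290 tested genes; red points are the 34 members, open squares the 13 tested upstream hairpins of the domain and grey points the other genes. Members lie between -0.64 and 0.48, inside the range of -1.52 to 2.66 over all genes.

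The same imprinted domain holds hairpins upstream, between Meg3 and the cluster, some of them antisense to Rtl1, which they repress. Of these 19 rows on the plus strand 14 were detected, and together they held 3.41% ± 0.0928 of all counts. Mir127 led with 11741 and 11717 CPM in pups 1 and 3, at the level of Mir382, followed by Mir434 at 4560 ± 288 CPM and Mir431 at 3849 ± 322 CPM. A row named Mir3071, across from Mir136 and on the minus strand in this annotation, had 3387 and 5227 own-strand counts and was left out. None of the 13 tested upstream hairpins was called, their median log2 ratio was 0.09 and the SD of their ratios 0.13. The difference of that SD from the 0.27 of the cluster was not tested.

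Among groups of at least 5 hairpins with neighbours within 10 kb, the cluster, with 38 hairpins, held the largest share of counts in these libraries. The 13 hairpins from Mir770 to Mir432 of the same domain held 3.01% ± 0.0879. The miR-17-92 cluster of dividing progenitors, with 6 hairpins, held 1.49% ± 0.138, and the X-linked group of Mir322, with 7, held 0.755% ± 0.0517. The median hairpin had 507 CPM in the cluster, against 546, 1512 and 103 CPM in these groups in turn. Neither the shares nor the ranges below were adjusted for the number of hairpins. Unequal levels were seen in those groups too: the detected hairpins spanned 1551-fold in the Mir770 to Mir432 group, 938-fold in miR-17-92 and 174-fold in the Mir322 group. The range of the Mir770 to Mir432 group was thus below the cluster's 6657-fold but above its 1419-fold without members that share a run. The SD of log2 CPM was 3.35, 3.86 and 2.88 there, against 2.81 in the cluster itself. The miR-17-92 cluster (Mir19b-1, Mir92-1) and the Mir322 group (Mir450-1, Mir450-2) hold hairpins numbered as copies, whose reads can map to several places. How far such lost reads lowered their shares or widened their ranges was not tested.

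**Figure D4:**
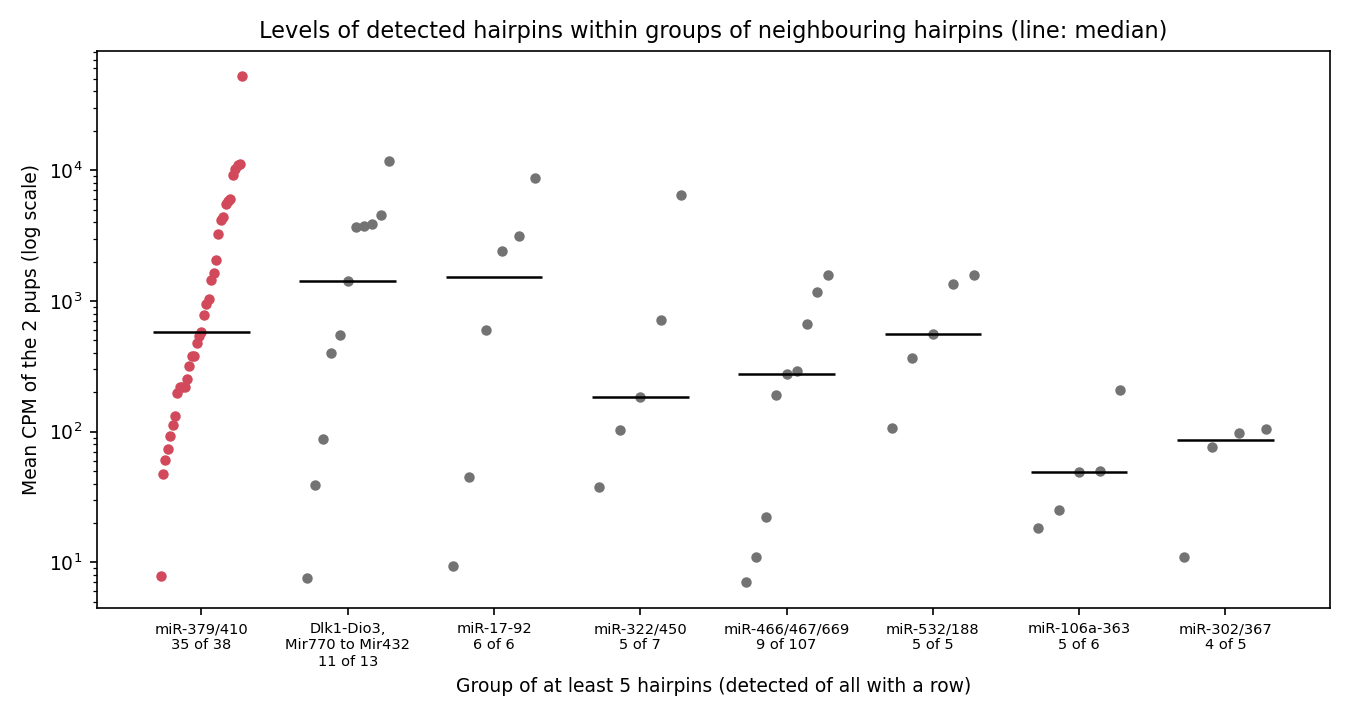
Mean CPM (log axis) of each detected hairpin in the 8 groups of neighbouring hairpins with at least 4 detected, in falling order of their share of counts; lines are medians and the red points are the members. The spread between the highest and lowest detected hairpin runs from 6657-fold in the cluster to 9.60-fold in the group of Mir302 hairpins, and the cluster's is 1419-fold without the 4 members that share a run.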

How the data were processed

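The values, raw counts for each gene as deposited, were made by the authors on assembly mm10 with GENCODE M4, per the deposited descriptions; no aligner or counter is named in the labels. Each table has columns for either, own and opposite strand, and 4 rows that name no gene, which took 57.2% and 56.7% of reads and stayed out of totals. IDs were matched without version to GENCODE M21 (GRCm38), for 1894 of 1973 genes. Own-strand counts were used, and opposite-strand counts for the 4 rows named.

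TMM factors came from edgeR 4.0.16, with a prior count of 0.5, size factors from DESeq2 1.42.0, exact tests from scipy 1.17.1 and folding energies from RNAfold 2.7.2. Calculations were tested on simulated data. A shared run is at least 20 bases in common with another annotated hairpin that does not overlap it. Only its length was recorded, so whether it covers a mature arm or could hold a whole read was not examined. No genome was searched, so the planned check for copies across the genome became one across annotated hairpins. Chi-square over genes was 33915 on 289 degrees of freedom, more than sampling noise gives, so these are separate libraries.

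Named are the 15 most abundant members, the 4 opposite-strand rows, seed pairs, the 5 highest and 5 lowest ratios and undetected members; the other members named were chosen after their values were seen. Members, lists and tests were chosen with earlier results of these data known. Alternatives were other scalings, count minimums, strands, totals, fold thresholds and pups.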

Additional observations from a re-analysis of the deposited data

How the results depend on the processing

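Of 49 alternative values 29 stayed within the spread or within 1.5 times a count. The cluster's share of 13.5% was 11.9% with plus-strand rows only, 7.26% without the 4 members that share a run (Mir487b, Mir411, Mir376c and Mir758), 16.1% without Mir99a in the total and 5.93% of all reads; leaving out a pup gave 13.2% to 13.9%. The 5 most abundant members held 69.6% of the cluster, 76.9% with plus-strand rows only and 60.9% without members sharing a run. The median log2 ratio of 0.08 was 0.12 with plain library totals, where the median of all genes was 0.06, and 0.0732 with plus-strand rows only. The 2 called members became 1 with plain totals, 9 where a difference of 25% was enough (18.6% of all genes) and 0 at 2-fold (5 of 290 genes). Spearman's correlation of level with position was 0.02, and 0.0661 over detected members, 0.0561 without members sharing a run and 0.0106 to 0.0143 with a pup left out. Over detected members the correlation was -0.22 for GC, -0.14 for length and 0.17 for free energy; without members sharing a run it was -0.32 for length and 0.0202 for free energy. The cause of these shifts was not tested. No paired analysis was possible because there is 1 group. Ratios could not be fitted with a pup left out. Reads mapping to several places limit all levels, and counting error limits Mir1197, Mir544 and Mir679.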
